A study of Mus musculus with 12 samples.

Results

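The syndecans and glypicans are the cell surface core proteins that carry heparan sulfate. They were followed here as 9 genes, Sdc1, Sdc2, Sdc3, Sdc4, Gpc1, Gpc3, Gpc4, Gpc5 and Gpc6, among 24147 genes counted in each library. The 9 were chosen by symbol, with earlier results of these data known, and the values that guided the choice are not recorded. The tests below therefore describe these libraries, and nothing is read from how many of the 9 passed. All 9 passed the filter on low counts, as did 14560 genes in all. Gpc2, the remaining glypican of the mouse, passed the filter too and is given beside them.

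The study removed the fiber cells from mouse lenses through an incision in the cornea, as in cataract surgery, and kept the capsule with the lens epithelial cells on it. Tissue from mice aged 2 months was frozen directly after surgery (0 h) or after 48 h. The strain of the wild type (WT) mice was C57BL/6, and FNcKO mice, a conditional knockout of the fibronectin gene, were of mixed C57BL/6, 129 and FVB/N background, so genotype and strain cannot be told apart. Each of the 4 groups, WT 0 h, WT 48 h, FNcKO 0 h and FNcKO 48 h, had 3 libraries, called biological triplicates. No source used here gives the driver of the knockout, the deleted exons or the number of lenses or animals behind a library. The stated goal concerned the role of fibronectin in the clouding of the capsule that can follow cataract surgery.

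Syndecans span the membrane, and their short cytoplasmic tails bind PDZ proteins and signalling kinases. Glypicans have no tail and are held to the outer leaf of the membrane by a glycosylphosphatidylinositol anchor. Both carry chains of heparan sulfate, a sulfated sugar polymer that binds fibronectin, laminins, growth factors and chemokines, and can present these to their receptors. In epithelia, syndecans take part in adhesion to matrix and in wound closure, while glypicans are best known as modulators of FGF, Wnt, BMP and hedgehog signals.

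Libraries held 8368160 to 10862573 counts, and levels are library-scaled counts (CPM, by TMM), so that 3 counts are worth 0.286 to 0.430 CPM. Fn1, the targeted gene, ran from 15.5 to 23.1 CPM in WT at 0 h, 8.32 to 16.8 in FNcKO at 0 h, 528 to 1515 in WT at 48 h and 146 to 688 in FNcKO at 48 h. The genotypes overlapped at both times, and a count over the whole gene checks the labels only in part. All 8 lens epithelial markers were detected in every library, and their summed level was 2042 to 3218 CPM at 0 h and 679 to 1658 at 48 h. The 12 fiber cell markers summed to 98030 CPM or more in each 0 h library and 88640 or less in each 48 h library. Leukocyte markers summed to 6.49 to 27.0 CPM at 0 h and 34.6 to 205.5 at 48 h. In such bulk samples fewer cells of a type and less RNA per cell cannot be told apart, and the part of these shifts in the results below was not tested.

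Over the 48 h after surgery, the set turned over rather than moving one way. Gpc1 and Sdc4 rose in both genotypes, Gpc1 about 4-fold and Sdc4 about 2.4-fold. Sdc2, Gpc3, Gpc4 and Gpc5 fell in both genotypes, from 1.53-fold for Gpc4 to 22.6-fold for Gpc5 in WT. Sdc3 rose 2.52-fold in WT and did not pass the test in FNcKO, and Sdc1 and Gpc6 passed in neither genotype. In the counts by edgeR's quasi-likelihood test with Benjamini-Hochberg adjustment over all genes (adjusted p under 0.05), 3 members were higher and 4 lower in WT, where 32.6% of all genes tested were called. In FNcKO, 2 were higher and 4 lower, where 24.8% of all genes were called. The libraries of the 0 h and 48 h groups did not overlap for 7 members in WT (51.5% of all genes) and for 6 in FNcKO (37.5% of all genes). The median log2 fold change of the 9 was −0.16 in WT and 0.10 in FNcKO, beside 0.02 and 0.00 over all genes.

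**Figure D1:**
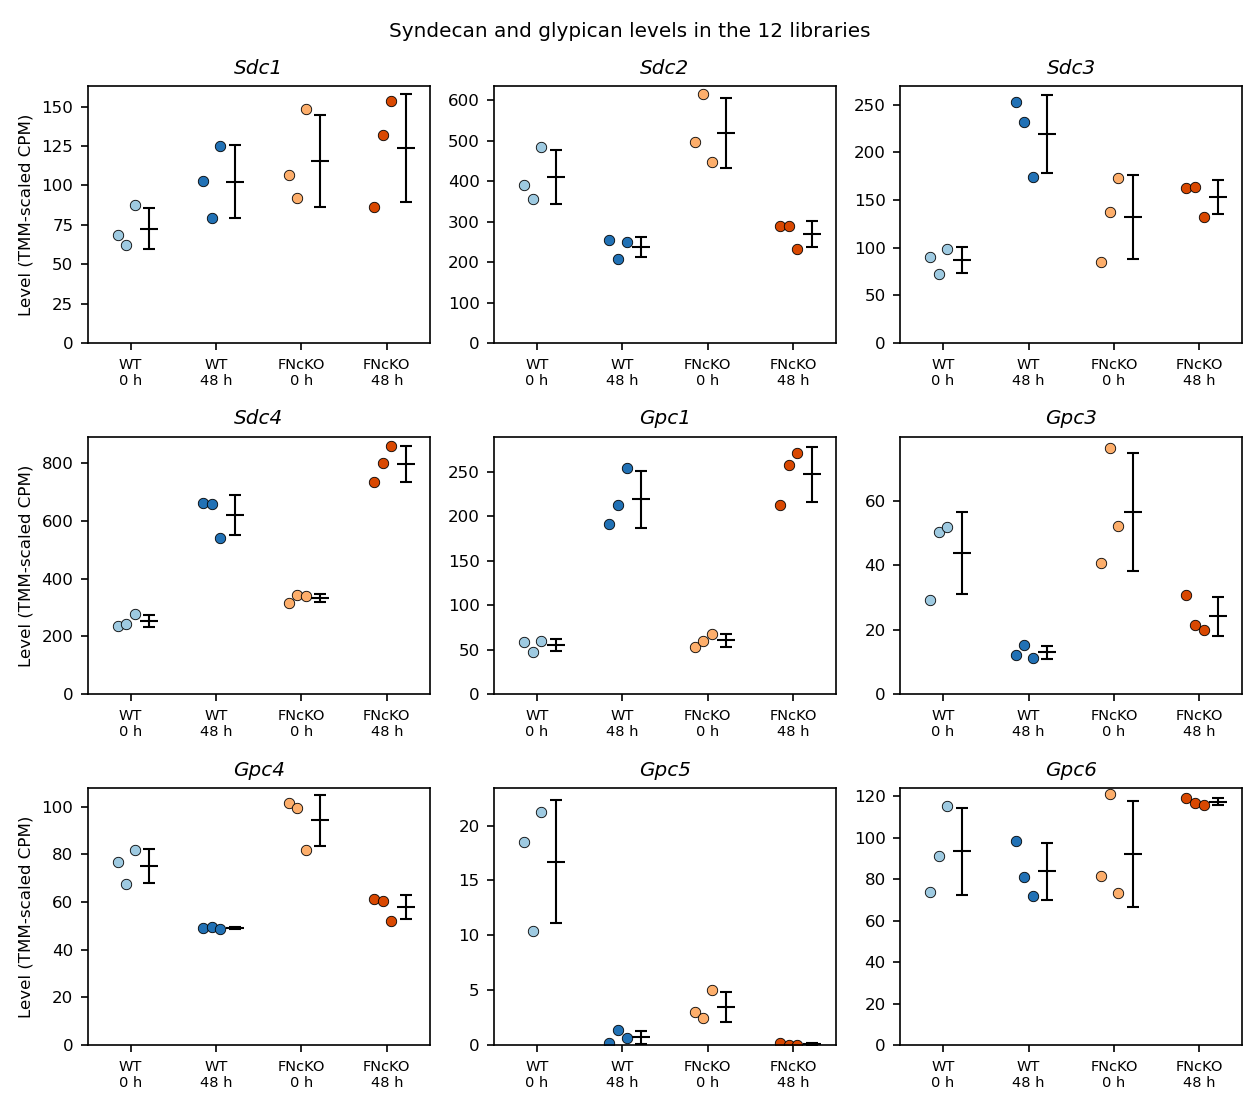
Level of each member (TMM-scaled CPM, axes from 0) in the 12 libraries, with 1 point per library and the mean ± SD of each group of 3 beside it. Gpc1 and Sdc4 stand higher in every 48 h library than in any 0 h library, and Sdc2, Gpc3, Gpc4 and Gpc5 stand lower within each genotype.

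Sdc4 encodes the syndecan of focal adhesions, which binds the heparin-binding part of fibronectin together with integrins and binds protein kinase C alpha through its tail. It lies on chromosome 2 from 164424247 to 164443188 (mm10, minus strand). In WT it was at 237, 243 and 277 CPM at 0 h and 662, 660 and 541 at 48 h. In FNcKO it was at 317, 345 and 339 CPM at 0 h and 736, 801 and 859 at 48 h. Every 48 h library was above every 0 h library in both genotypes. The log2 fold change was 1.30 (SE 0.17, edgeR, adjusted p = 0.00013) in WT and 1.26 (SE 0.17, edgeR, adjusted p = 0.000258) in FNcKO. The SE is an approximation taken from the size of the log2 value and its F statistic. At each time all 3 FNcKO libraries were above all 3 WT libraries, by 0.40 on the log2 scale at 0 h (edgeR, adjusted p = 0.413) and 0.36 at 48 h (adjusted p = 0.891), neither past the threshold.

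The promoter is shown because Sdc4 had the highest level per length of the set at 48 h. RefSeq sequences of the 250 bases before the start in the deposited coordinates (GRCm38.p6, the assembly of mm10) were matched by symbol for 6 of the 9 members. Sdc2, Gpc1 and Gpc6 had none. GENCODE extends some genes further upstream, Sdc4 to 164443887 and Gpc4 to 52165252, so both windows lie inside these genes as annotated there. The Sdc1 window lies partly inside its gene, which begins at 8771323 in GENCODE. Both strands were searched for the GC box, spelled GGGCGG. The search was repeated for an element known to bind AP-1 factors, spelled TGANTCA, and for a TATA box, spelled TATAAA. Matches are in capitals, and each window is printed on the strand of its gene. The Sdc4 window, chr2:164443189-164443438 on the minus strand, held 4 GC boxes:
Sdc4: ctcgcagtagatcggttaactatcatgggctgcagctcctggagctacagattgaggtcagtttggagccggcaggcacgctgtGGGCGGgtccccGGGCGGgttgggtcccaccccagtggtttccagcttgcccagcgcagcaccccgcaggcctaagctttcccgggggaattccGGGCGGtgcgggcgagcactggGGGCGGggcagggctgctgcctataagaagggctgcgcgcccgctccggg
All 6 matched members had a GC box in this window, as had 32.74% of all 32851 promoters of the same length in the table. None of the 6 had TGANTCA, which 6.75% of promoters held. Their windows held 51.2% G and C for Gpc5 and 66.0% to 76.4% for the other matched members, against a median of 52.4% over all promoters. These are letter matches in short windows and do not show that a factor binds there.

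Sdc2, a syndecan of mesenchymal and many other cells, went the other way. It lies on chromosome 15 from 32920723 to 33034721. WT libraries were at 390, 356 and 485 CPM at 0 h and 256, 209 and 249 at 48 h. FNcKO libraries were at 498, 615 and 447 CPM at 0 h and 288, 289 and 233 at 48 h. No 48 h library reached the level of a 0 h library in either genotype. The fall was −0.79 on the log2 scale in WT (SE 0.19, edgeR, adjusted p = 0.00683) and −0.95 in FNcKO (SE 0.19, edgeR, adjusted p = 0.00312). Lens epithelial markers fell in the same comparisons, with 5 of 8 lower in each genotype, and so did fiber cell markers, with 6 of 12 lower in WT and 5 of 12 in FNcKO. Of all 14560 genes tested, 1970 were called lower in WT and 1442 in FNcKO.

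Sdc3, first known as the syndecan of neural tissue, responded in WT. It lies on chromosome 4 from 130792537 to 130826318. WT libraries held 90.2, 72.1 and 98.4 CPM at 0 h and 253, 232 and 174 at 48 h, with no overlap. FNcKO libraries held 85.4, 137 and 173 CPM at 0 h and 163, 163 and 133 at 48 h, and the times overlapped. The log2 fold change was 1.34 in WT (SE 0.24, edgeR, adjusted p = 0.00116) and 0.21 in FNcKO (SE 0.24, edgeR, adjusted p = 0.553). FNcKO 0 h replicate 1, the lowest of its group, decides the sign in FNcKO: without it the log2 value was −0.02. The counts of this library also appear among the deposited data under the name of WT 0 h replicate 1, as described under the processing. Leaving out other single libraries gave values up to 0.42. With total counts as the scale it was 0.52 (edgeR, adjusted p = 0.0903), or 0.23 relative to the median of all genes. The difference of these responses, −1.12 (SE 0.33, unadjusted p = 0.00491), had an adjusted p of 0.894 in edgeR and did not pass, and no gene of the 14560 did in that comparison.

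Markers of other cell types are given beside Sdc3. The 9 macrophage markers in the files, none at 0 in any library, summed to 63.3 to 156 CPM in WT at 0 h, 210 to 466 in WT at 48 h, 51.9 to 102 in FNcKO at 0 h and 134 to 304 in FNcKO at 48 h. Of these, 4 rose in each genotype, where 2775 of all 14560 genes were called higher in WT and 2169 in FNcKO. The 6 pigment cell markers, also all detected, summed to 197 to 272 CPM in WT at 0 h and 169 to 436 at 48 h, against 139 to 164 and 17.3 to 62.6 in FNcKO. Over time 2 of the 6 rose and 1 fell in WT, while 0 rose and 2 fell in FNcKO. The WT 48 h libraries with the highest Sdc3, replicates 1 and 2, were also the highest in both sums. Within FNcKO at 48 h, replicate 3 was the highest in macrophage markers and the lowest in Sdc3. The 5 stromal fibroblast markers summed to 122 to 154 CPM in WT at 0 h and 282 to 591 at 48 h, against 132 to 164 and 113 to 146 in FNcKO. Of the 4 tested, 2 rose and 1 fell in each genotype. The part of any of these cell types in the Sdc3 level was not tested.

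**Figure D2:**
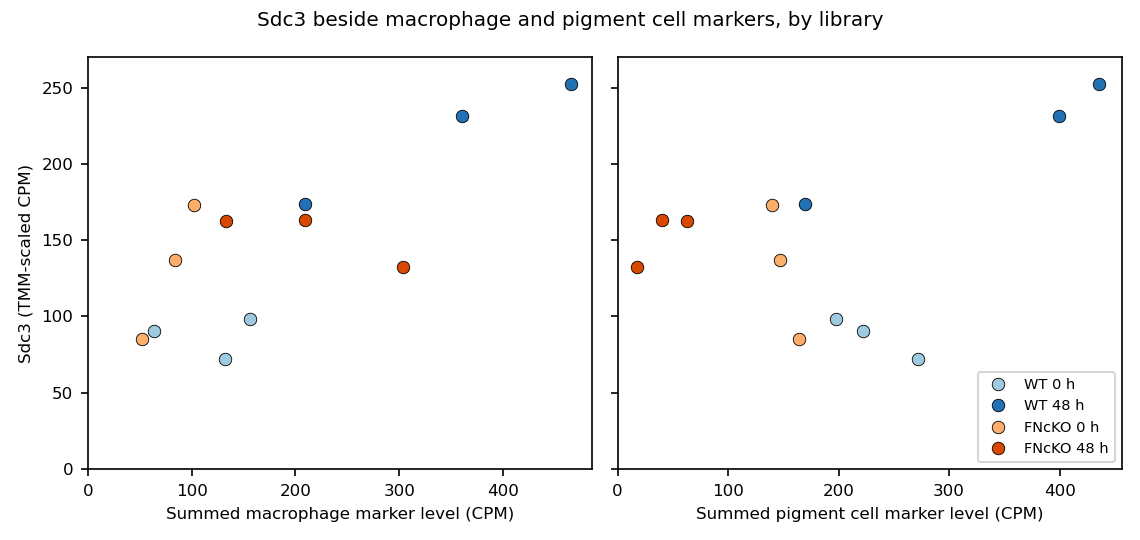
Sdc3 (TMM-scaled CPM) against the summed level of 9 macrophage markers (left) and 6 pigment cell markers (right), with 1 point per library coloured by group. WT 48 h replicates 1 and 2 (253 and 232 CPM of Sdc3) lie at the top right of both panels, and FNcKO 48 h libraries lie at 133 to 163 CPM of Sdc3 with pigment sums of 17.3 to 62.6.

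Sdc1, the main syndecan of stratified epithelia and also abundant on plasma cells, passed no test. It lies on chromosome 12 from 8771396 to 8793687. WT libraries were at 68.4, 62.0 and 87.6 CPM at 0 h and 103, 79.1 and 125 at 48 h, and FNcKO libraries at 107, 92.1 and 148 at 0 h and 86.4, 132 and 153 at 48 h. The times overlapped in both genotypes. The log2 fold change was 0.50 in WT (SE 0.25, edgeR, adjusted p = 0.14) and 0.10 in FNcKO (SE 0.25, edgeR, adjusted p = 0.809). With total counts in place of TMM as the scale, the WT value was 0.71 and passed (adjusted p = 0.0366); that scale moves the median of all genes by 0.23, and relative to it the value was 0.48. Markers of B and plasma cells had summed levels of 0.447 to 4.18 CPM over 7 genes. The 6 corneal epithelium markers summed to 14.7 to 20 CPM in WT at 0 h and 8.46 to 14.1 at 48 h. In FNcKO they summed to 18.1 to 61.5 CPM at 0 h and 5.08 to 8.98 at 48 h. The part of these cell types in the Sdc1 level was not tested.

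**Figure D3:**
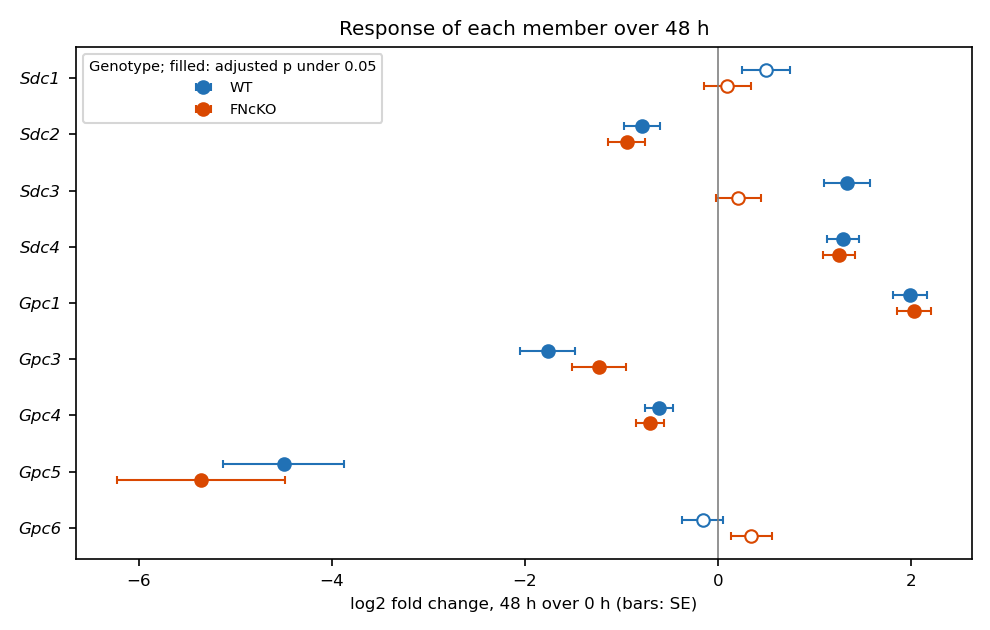
log2 fold change of each member from 0 h to 48 h in WT (blue) and FNcKO (orange), with bars of 1 SE and filled points where the adjusted p is under 0.05. Gpc1 lies near 2 in both genotypes and Gpc5 below −4, while Sdc3 lies at 1.34 in WT and 0.21 in FNcKO.

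Gpc1, the most widely expressed glypican and a co-receptor for FGF and other heparin-binding factors, had the largest rise of the set. It lies on chromosome 1 from 92831686 to 92860196. WT libraries rose from 58.4, 47.1 and 59.3 CPM at 0 h to 191, 213 and 254 at 48 h. FNcKO libraries rose from 52.6, 60.1 and 68.0 CPM to 213, 258 and 271. The lowest 48 h library was above the highest 0 h library in each genotype. The log2 fold change was 2.00 in WT (SE 0.18, edgeR, adjusted p = 1.08e-05) and 2.04 in FNcKO (SE 0.18, edgeR, adjusted p = 1.06e-05). Ankmy1, which shares exon bases with Gpc1 on the opposite strand in GENCODE, was at 0.830 CPM or less in every library.

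Gpc3 and Gpc4 are neighbours on the X chromosome, both on the minus strand, 107.5 kb apart with no annotated gene between them. Gpc3 (52272427 to 52613974) encodes an inhibitor of hedgehog signalling that is mutated in a human overgrowth syndrome. Gpc4 (52053018 to 52164923) encodes a glypican that acts in FGF and Wnt signalling and, in the brain, in synapse formation. Gpc3 was at 29.1, 50.4 and 51.8 CPM in WT at 0 h and 12.1, 15.3 and 11.3 at 48 h. In FNcKO it was at 40.5, 76.4 and 52.2 CPM at 0 h and 30.9, 21.4 and 19.9 at 48 h. The groups did not overlap over time, and all 3 FNcKO libraries at 48 h were above all 3 WT libraries. Gpc3 fell by 1.76 on the log2 scale in WT (SE 0.28, edgeR, adjusted p = 0.000607) and by 1.23 in FNcKO (SE 0.28, edgeR, adjusted p = 0.00618).

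Gpc4 moved less, with little spread. WT libraries were at 76.6, 67.4 and 81.7 CPM at 0 h and 49.3, 49.5 and 48.9 at 48 h, and FNcKO libraries at 101, 99.6 and 81.9 and then 61.2, 60.5 and 52.0. The times did not overlap in either genotype. Gpc4 fell by 0.61 on the log2 scale in WT (SE 0.14, edgeR, adjusted p = 0.00573) and by 0.70 in FNcKO (SE 0.14, edgeR, adjusted p = 0.00334). With total counts as the scale both calls were lost (−0.40, adjusted p = 0.0863, and −0.44, adjusted p = 0.0693). Relative to the median of all genes on that scale, 0.23 in WT and 0.29 in FNcKO, the values were −0.62 and −0.72. Over the 12 libraries Gpc3 and Gpc4 had a Pearson r of 0.88 on log2 levels, a description of libraries that share their time groups. The labels used here give no sex, and Xist, the RNA of the inactive X, ran from 4.96 to 3541 CPM across libraries; its part in the levels of these X-linked genes was not tested.

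Both windows are shown because the genes are adjacent and fell together. That of Gpc4 lies inside the gene as GENCODE gives it, as stated above. Gpc3, chrX:52613975-52614224 on the minus strand, held 3 GC boxes, at 63, 29 and 19 bases before the start, and Gpc4, chrX:52164924-52165173 on the minus strand, held 1 at 217 bases. GC boxes in capitals can read CCGCCC, the same motif on the other strand:
Gpc3: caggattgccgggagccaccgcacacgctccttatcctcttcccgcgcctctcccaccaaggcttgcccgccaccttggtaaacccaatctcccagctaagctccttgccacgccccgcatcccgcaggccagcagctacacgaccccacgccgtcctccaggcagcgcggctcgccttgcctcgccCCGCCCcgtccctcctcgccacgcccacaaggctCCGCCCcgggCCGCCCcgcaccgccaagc
Gpc4: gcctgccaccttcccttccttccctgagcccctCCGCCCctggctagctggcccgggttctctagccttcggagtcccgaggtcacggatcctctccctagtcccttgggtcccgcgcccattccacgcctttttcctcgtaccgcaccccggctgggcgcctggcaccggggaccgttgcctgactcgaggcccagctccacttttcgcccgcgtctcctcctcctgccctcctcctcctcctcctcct

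Gpc5, a glypican that binds hedgehog proteins, was the least abundant member and fell the most. It spans 1433.0 kb of chromosome 14, from 115092215 to 116525192. WT libraries held 18.5, 10.4 and 21.2 CPM at 0 h (184, 102 and 176 counts) and 0.190, 1.36 and 0.623 CPM at 48 h (2, 14 and 6 counts). FNcKO libraries held 3.02, 2.42 and 5.02 CPM at 0 h (27, 21 and 35 counts), and at 48 h 1 library held 2 counts and the other two 0, which allows up to 0.328 and 0.317 CPM. The times did not overlap in either genotype, and FNcKO started below WT in every library. With 14 counts or fewer in each 48 h library, Gpc5 passed the filter on low counts through its 0 h libraries. Over time, therefore, only a fall could be called.

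The fitted log2 fold change of Gpc5 was −4.50 in WT (SE 0.63, edgeR, adjusted p = 0.000242) and −5.36 in FNcKO (SE 0.87, edgeR, adjusted p = 0.000902). From summed counts, 462 against 22 in WT and 83 against 2 in FNcKO, the 0 h level was 22.8 times that at 48 h in WT (exact 95% interval 14.9 to 36.7) and 47.4 times in FNcKO (12.7 to 398), for counting error only. Without WT 48 h replicate 2, which holds 14 of the 22 counts, the fitted WT value was −5.33, a 40.2-fold fall (edgeR, adjusted p = 0.00022). Without FNcKO 48 h replicate 1, the 48 h group has no count, and the fitted FNcKO value of −8.01 is then no measure of size. At 0 h the log2 value of FNcKO against WT was −2.26 (SE 0.55, unadjusted p = 0.00111), with an adjusted p of 0.192 in edgeR that ran from 0.00273 to 0.42 over the alternatives. DESeq2 called it (−2.28, adjusted p = 0.00273), and so did edgeR on the 0 h libraries alone (−2.30, adjusted p = 0.03).

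The window before Gpc5, chr14:115091965-115092214 on the plus strand, is shown because it was the only matched member with TATAAA (12.37% of all promoters) and had the lowest share of G and C. The TATA match reads TTTATA in capitals, so TATAAA is on the strand opposite the gene. This match starts 185 bases before the start of the gene, and the GC box 46 bases before that start:
Gpc5: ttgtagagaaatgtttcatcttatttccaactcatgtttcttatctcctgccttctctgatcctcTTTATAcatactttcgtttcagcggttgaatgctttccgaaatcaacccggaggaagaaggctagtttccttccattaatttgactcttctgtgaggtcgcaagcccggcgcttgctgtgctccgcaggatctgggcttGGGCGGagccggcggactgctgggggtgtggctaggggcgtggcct

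Gpc6, a glypican of growing bone that acts in hedgehog and Wnt signalling, lies beside Gpc5 on chromosome 14 (116925297 to 117979529, 400.1 kb away) and did not follow it. WT libraries were at 73.7, 91.2 and 115 CPM at 0 h and 98.7, 80.9 and 71.7 at 48 h. FNcKO libraries were at 81.5, 121 and 73.4 CPM at 0 h and 119, 117 and 116 at 48 h. The times overlapped in both genotypes. The log2 fold change was −0.16 in WT (SE 0.21, edgeR, adjusted p = 0.593) and 0.35 in FNcKO (SE 0.21, edgeR, adjusted p = 0.25). Gpc2, known from the developing nervous system, stayed between 1.42 and 6.02 CPM in all libraries and passed no test.

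Because the members differ in length, their levels were set side by side only after division by the deposited length column (CPM per kb). At 0 h Sdc2 led with 124 ± 20.2 CPM per kb (SD, n = 3) in WT and 157 ± 26.1 in FNcKO, and Sdc4 followed with 103 ± 8.64 and 136 ± 5.86, with overlapping libraries. At 48 h Sdc4 led with 252 ± 28.1 in WT and 325 ± 25.03 in FNcKO, far above Sdc2 at 71.8 ± 7.67 and 81.5 ± 9.73, and Gpc1 came next, its libraries overlapping those of Sdc2. Gpc1 had been 7 in the order at 0 h in both genotypes, and Gpc4 went from 3 to 6.

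Further down, the order was less distinct. At 0 h the libraries of neighbours overlapped from Sdc1 down to Gpc6 in WT and from Gpc4 down to Gpc6 in FNcKO, and Gpc5 was last and apart. At 48 h Sdc3 and Sdc1 overlapped in both genotypes, while Gpc4, Gpc6, Gpc3 and Gpc5 followed in this order with no overlap between neighbours. These are levels of RNA, and the length column does not tell which isoforms were made.

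The make-up of the set shifted in both genotypes. Sdc2 made up 34.8% ± 1.41 of the summed CPM per kb of the 9 in WT at 0 h and 14.3% ± 1.63 at 48 h, and in FNcKO 34.5% ± 3.76 and 13.7% ± 2.11 (SD, n = 3). Sdc4 went from 29.1% ± 1.496 to 50.1% ± 3.78 in WT and from 29.9% ± 1.44 to 54.1% ± 1.88 in FNcKO. Gpc1 went from 4.38% ± 0.467 to 12.3% ± 2.37 in WT and from 3.74% ± 0.481 to 11.6% ± 0.868 in FNcKO. The syndecans together kept 74.7% to 81.9% of the sum in every library. The sum itself was 354 ± 45.3 CPM per kb in WT at 0 h and 503 ± 23.3 at 48 h, and 454 ± 38.3 and 600 ± 30.7 in FNcKO. The times did not overlap under TMM, DESeq2 size factors or total counts, whereas the genotypes were apart at each time under TMM and DESeq2 size factors and overlapped under total counts.

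**Figure D4:**
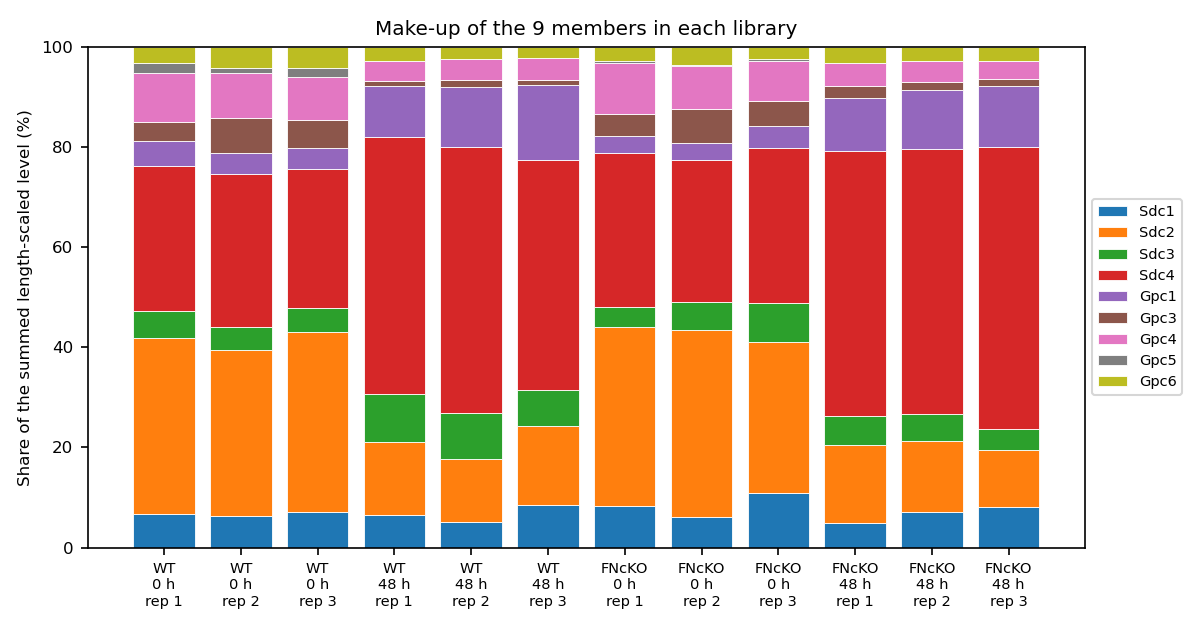
Share (%) of each member in the summed CPM per kb of the 9, with 1 stacked bar per library from 0 to 100. In both genotypes Sdc2 narrows from about 34.8% to 14.3% (WT means) and Sdc4 widens from 29.1% to 50.1%.

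Between genotypes no member passed the threshold at 48 h, where 0.24% of all genes did, or at 0 h, where 0.144% did. At an unadjusted p under 0.05 in edgeR there were 5 members at each time, beside 5.47% of all genes at 48 h and 11% at 0 h. DESeq2 and limma-voom called 0 members at 48 h (0.748% of all genes in DESeq2). At 0 h DESeq2 called Gpc5 alone, where it called 0.85% of all genes, and limma-voom called 0 members. Libraries of the genotypes did not overlap for 5 members at 48 h (9.74% of all genes) and for 4 at 0 h (16.6% of all genes). At 48 h these were Sdc4, Gpc3, Gpc4 and Gpc6, higher in FNcKO, and Sdc3, lower. At 0 h they were Sdc1, Sdc4 and Gpc4, higher in FNcKO, and Gpc5, lower. The median difference of the 9 was 0.23 at 48 h and 0.34 at 0 h on the log2 scale, beside 0.01 and 0.01 over all genes. The largest at 48 h in a gene with more than a few counts was Gpc3, 1.87-fold higher in FNcKO (log2 0.90, SE 0.28, edgeR, adjusted p = 0.465).

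For the difference of the 48 h responses, 0 members passed in edgeR, DESeq2 or limma-voom, and 0% of all genes did in edgeR. Over all genes, 735 had an unadjusted p under 0.05 in edgeR, and DESeq2 called 28 (0.189%) and limma-voom 0. Among the members, Sdc3 alone had an unadjusted p under 0.05, beside 5.05% of all genes. For the members that rose in both genotypes the difference was small beside its error, −0.04 (SE 0.23) for Sdc4 and 0.04 (SE 0.24) for Gpc1. A miss of the threshold does not show that the responses were equal.

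The genes whose log2 levels over the 12 libraries were most like a member's, by Pearson r among all tested genes, were named by rule as a description. Gpc1 was closest to Angptl4 (r = 0.996), Tagln2 (0.992) and Tnfrsf12a (0.989). Sdc4 was closest to Zdhhc18 (0.973), the chemokine gene Ccl2 (0.973) and the metalloproteinase inhibitor gene Timp1 (0.97). Sdc2 was closest to Neo1 (0.979), Tmem64 (0.977) and its fellow member Gpc4 (0.97), and Gpc4 to Sema3d (0.986), Sdc2 (0.97) and Nfix (0.97). Most of these values follow the split between 0 h and 48 h that the libraries share.

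The other members had looser partners. Sdc3 was closest to Asah1 (0.97), Pdia3 (0.96) and Serinc3 (0.944), and Sdc1 to Cdk2ap1 (0.943), Eif2b3 (0.943) and Mtap (0.94). Gpc3 was closest to Rimbp2 (0.949), Ino80dos (0.944) and Kcnk1 (0.935), and Gpc5 to Slc5a6 (0.945), Slc19a1 (0.938) and 4732456N10Rik (0.936). Gpc6 had the loosest, Slc30a1 (0.848), Gm10677 (0.806) and Cmah (0.804). Among the members, Sdc4 and Gpc1 had an r of 0.956, Sdc4 and Gpc5 −0.909, and the neighbours Gpc5 and Gpc6 −0.267.

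Core proteins act through their chains, so the genes of heparan sulfate assembly were counted from fixed lists. Of 12 genes that build the linker and polymerise the chain, all tested, 2 rose and 1 fell in WT over time, beside 32.6% called among all genes, with a list median of −0.08 on the log2 scale. Ext1, part of the chain polymerase, was at 72.0, 62.2 and 81.4 CPM at 0 h and 123, 96.0 and 122 at 48 h in WT (log2 0.66, SE 0.18, edgeR, adjusted p = 0.0129). Pxylp1, which removes the phosphate from the linker xylose, rose 2.05-fold (log2 1.04, adjusted p = 0.0375), and Xylt1, which starts the chain, fell 3.12-fold (−1.64, adjusted p = 0.0393). The Xylt1 call was lost under 11 of 21 alternatives, the Pxylp1 call under 7 and the Ext1 call without WT 0 h replicate 2. In FNcKO only Pxylp1 passed, 3.10-fold higher (edgeR, adjusted p = 0.00478), beside 24.8% called among all genes.

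Of 22 genes that sulfate and edit the chain, 18 were tested. In WT 3 rose and 0 fell (list median 0.15), beside 32.6% called among all genes. Sulf2, an extracellular enzyme that removes sulfate from finished chains, went from 13.2, 11.5 and 5.78 CPM to 63.0, 68.4 and 64.5 in WT, with no overlap (log2 2.67, SE 0.27, edgeR, adjusted p = 2.4e-05). It rose 8.51-fold in FNcKO, from 4.58, 8.20 and 7.03 CPM to 56.7, 58.3 and 53.4. Hs3st3a1, a 3-O-sulfotransferase, rose 2.73-fold in WT (edgeR, adjusted p = 0.018), which no longer passed when replicate 2 or 3 of WT 0 h or replicate 1 of WT 48 h was left out. At 48 h Hs3st3a1 was 4.09-fold lower in FNcKO than in WT, with no overlap, and did not pass (edgeR, adjusted p = 0.0942). Hs6st2, a 6-O-sulfotransferase named after its value was seen, fell 2.55-fold in FNcKO (adjusted p = 0.0328).

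Papss2, which makes the sulfate donor used by the sulfotransferases, was the only list gene called between genotypes. At 48 h WT libraries held 101, 67.2 and 44.4 CPM and FNcKO libraries 17.6, 18.7 and 24.6, with no overlap. At 0 h they held 22.9, 23.4 and 16.5 CPM in WT and 12.97, 15.7 and 16.5 in FNcKO. The log2 value of FNcKO against WT at 48 h was −1.80 (SE 0.27, edgeR, adjusted p = 0.0162, with at most 0.249 over the alternatives). The call was lost in 4 of 21, among them leaving out FNcKO 48 h replicate 1 or 2. Papss2 rose 3.38-fold in WT over time (adjusted p = 0.000428) and 1.35-fold in FNcKO (adjusted p = 0.266), and the difference of the responses had an adjusted p of 0.882 in edgeR. The 5 stromal fibroblast markers, of which Kera was at 0 in WT and at most 0.317 CPM in FNcKO, summed to 282 to 591 CPM in WT at 48 h and 113 to 146 in FNcKO, and pigment cell markers also differed there, as given above for Sdc3; their part in the Papss2 level was not tested.

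Of 10 genes that degrade heparan sulfate, 9 were tested. In WT 1 rose and 1 fell (list median −0.14), beside 32.6% called among all genes. Hpse, heparanase, which cuts the chains outside the cell, was at 1.91, 1.94 and 2.169 CPM at 0 h and 22.1, 17.9 and 4.57 at 48 h in WT (log2 2.88, SE 0.58, edgeR, adjusted p = 0.00228). FNcKO libraries at 48 h held 2.54, 2.29 and 0.846 CPM. This was 7.81-fold lower than WT, with no overlap, and did not pass (edgeR, adjusted p = 0.0591). Ids, the lysosomal iduronate sulfatase, fell 1.84-fold in WT (edgeR, adjusted p = 0.00359). It was the only gene of this list called in FNcKO, 1.79-fold lower, beside 24.8% of all genes.

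Of 15 genes for shedding of core proteins and for partners inside the cell, 14 were tested. In WT 6 rose and 0 fell (list median 0.16), beside 32.6% called among all genes. Mmp14, a membrane protease known to cut Sdc1 from the surface, rose from 24.5, 30.5 and 32.2 CPM to 194, 124 and 171 in WT (log2 2.49, SE 0.26, edgeR, adjusted p = 2.87e-05) and 4.74-fold in FNcKO. Sdcbp, syntenin, which binds syndecan tails, rose 2.36-fold in WT (edgeR, adjusted p = 0.000284) and 1.68-fold in FNcKO (adjusted p = 0.00792). Mmp9, a secreted protease also made by neutrophils, went from 2.21, 2.04 and 0.361 CPM to 250, 30.2 and 49.0 in WT (log2 6.11, SE 1.02, edgeR, adjusted p = 0.0014). Without WT 48 h replicate 1, the library at 250 CPM, the log2 value was 4.65 (edgeR, adjusted p = 0.00122). Neutrophil markers summed to 3.80 to 10.1 CPM at 0 h and 45.3 to 351 at 48 h, and their part in this was not tested. In FNcKO 5 rose, Mmp7, Mmp9, Mmp14, Sdcbp and Pdcd6ip, beside 24.8% called among all genes. Of these, Mmp7 and Pdcd6ip were named after their values were seen. Mmp7 was at 0 in every 0 h library of both genotypes, so only a rise could be called. It was at 0.740, 1.09 and 1.16 CPM in FNcKO at 48 h, near the floor.

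Of 8 other core proteins that carry or can carry heparan sulfate, all were tested. In WT 4 rose and 1 fell (list median 0.53), beside 32.6% called among all genes. Srgn, serglycin, the proteoglycan of leukocyte granules, rose from 0.803, 0.918 and 1.81 CPM to 196, 73.7 and 58.3 (log2 6.55, SE 0.60, edgeR, adjusted p = 2.96e-05), beside the rise of leukocyte markers. Without WT 48 h replicate 1, the highest library, the Srgn value was 5.83 (edgeR, adjusted p = 1.89e-06). Agrn, agrin of basement membranes, rose 1.53-fold, and Nrp1, a receptor for semaphorins and VEGF, 1.95-fold (edgeR, adjusted p = 0.0185 and 0.0244). Hspg2, perlecan, the main heparan sulfate proteoglycan of basement membranes, fell from 2297, 1428 and 2560 CPM to 583, 671 and 1181 (log2 −1.37, SE 0.37, adjusted p = 0.0133). Agrn and Nrp1 were each lost in 4 of 21 alternatives, and Hspg2 when replicate 3 of WT 0 h or replicate 1 of WT 48 h was left out. In FNcKO 3 rose, Agrn, Srgn and Cd44, the last named after its value was seen, beside 24.8% called among all genes.

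Of 16 heparin-binding growth factors, 13 were tested. In WT 7 rose and 2 fell (list median 1.396), beside 32.6% called among all genes. In FNcKO 6 rose and 2 fell (0.58), beside 24.8% of all genes. Areg, named after its value was seen, is among the rises in both genotypes. It was at 0.3354 CPM or less in every 0 h library, so only a rise could be called. Pdgfb went from 0.903, 1.22 and 1.08 CPM to 17.1, 26.4 and 60.5 in WT (log2 4.999, SE 0.70, edgeR, adjusted p = 0.000457), with a log2 value of 4.33 without WT 48 h replicate 3. Hbegf, an EGF receptor ligand that needs heparan sulfate, went from 38.2, 41.9 and 49.2 to 110, 140 and 199 (log2 1.80, SE 0.31, adjusted p = 0.00105). Tgfb1 rose 2.63-fold (edgeR, adjusted p = 0.00123). Fgf1, the acidic FGF, fell from 25.7, 70.3 and 85.4 CPM to 7.42, 11.6 and 2.08 in WT (log2 −3.10, SE 0.55, edgeR, adjusted p = 0.00157), and Ptn, pleiotrophin, fell 2.33-fold (adjusted p = 0.00618). In FNcKO Fgf1 fell again, 3.89-fold, with Vegfa, named after its value was seen, 1.95-fold lower.

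**Figure D5:**
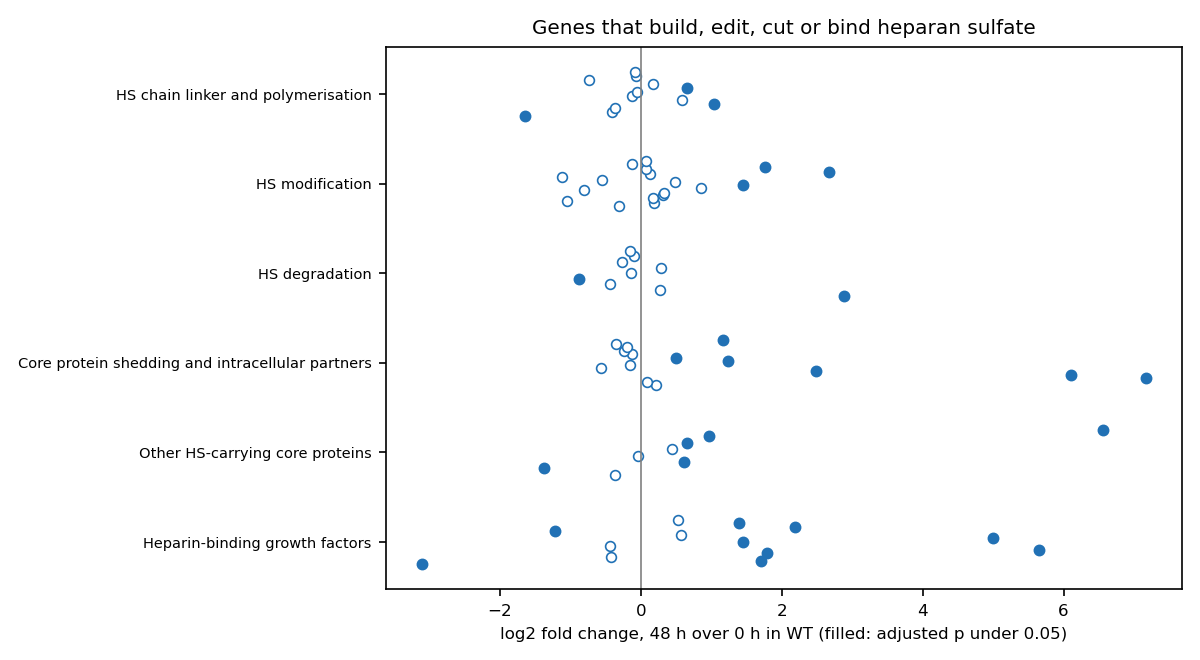
log2 fold change from 0 h to 48 h in WT for each tested gene of the 6 heparan sulfate (HS) lists, with 1 point per gene and filled points where the adjusted p is under 0.05. Called genes are 3 of 12 in chain building, from −1.64 (Xylt1) to 1.04 (Pxylp1), and 2 of 9 in degradation, up to 2.88 (Hpse), beside 32.6% of all genes, and the heparin-binding growth factors have 7 called genes above 0 and 2 below.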

How the data were processed

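RNA was sequenced from 12 libraries. The authors deposited a whole-number count and an RPKM value for each of 24147 genes per library (mm10), per the file headers. The deposited RPKM equals the count per length and total, and was used only for this check. The submitters' processing notes list Trim Galore 0.4.4, TopHat2 2.1.0, HTSeq 0.6.1p1 and edgeR 3.16.5, without their roles. The annotation and the strand setting of the counting are not given in the sources at hand. Sdc3, Gpc1 and Gpc5 share exon bases with genes on the other strand in GENCODE, and reads of such a pair may be mixed or dropped there. A combined deposited table repeats 9 libraries; its column named for WT 0 h replicate 1 equals FNcKO 0 h replicate 1 in all 24147 genes, and the file of the library itself was used.

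Counts were tested in R 4.3.3 with edgeR 4.0.16 (filterByExpr, TMM, robust quasi-likelihood F test on 4 group means over 12 libraries, Benjamini-Hochberg adjustment over 14560 genes), checked on simulated data. The p-values measure the spread between these libraries. Library totals of 8368160 to 10862573 counts make 3 counts worth 0.286 to 0.430 CPM. Alternatives were DESeq2 1.42.0, limma-voom 3.58.1, other scales and filters, a replicate block and libraries left out.

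The members and lists were chosen with earlier results of these data known. Named were all members, Gpc2, the 3 genes most like each member (log2 of CPM + 2), the 3 list genes of smallest p per direction in WT over time and any list gene called between genotypes.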

Additional observations from a re-analysis of the deposited data

How the results depend on the processing

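The counts of members called over time were 3 to 4 higher and 3 to 4 lower in WT, and 2 higher and 3 to 4 lower in FNcKO, over 22 settings each. Between genotypes they were 0 throughout, except that at 0 h 1 member, Gpc5, was lower with DESeq2 and with only the 0 h libraries in the fit. Total counts as the scale added Sdc1 in WT and removed Gpc4 in both genotypes, and moved the share of calls that were higher among all genes from 58.5% to 76.3% in WT and from 60.1% to 82.4% in FNcKO. Sign changes were found in differences that passed no test. With total counts these were Gpc6 in WT (0.0567), Gpc1 between genotypes at 0 h (−0.0283) and the Sdc4 difference of responses (0.0333). Without both 0 h replicate 1 libraries they were Sdc3 in FNcKO (−0.0217) and the Gpc1 difference of responses (−0.0968). Leaving out each library in turn gave log2 values of −0.30 to 0.0238 for Gpc6 in WT, −0.27 to 0.16 for Gpc6 between genotypes at 0 h, −0.0212 to 0.42 for Sdc3 and −0.0804 to 0.30 for Sdc1 in FNcKO, and −0.13 to 0.0114 for Sdc4 and −0.0522 to 0.16 for Gpc1 as differences of responses. The cause was not tested. Without division by length, 17 places in the order of levels over the 4 groups changed. Correlations of same-numbered libraries between groups ran from −0.507 to 0.32, and groups of 3 are too small to settle whether replicate numbers pair the libraries. A replicate block changed no member call and moved the calls over all genes from 4745 to 4184 in WT and from 3611 to 3048 in FNcKO. The difference of responses has no fit with only the groups compared, and Gpc5 at 48 h was removed by the filter there. At this depth Gpc5 at 48 h rests on 22 counts in WT and 2 in FNcKO.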
